A study of Mus musculus with 51 samples.

Results

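Peaks of trimethylated lysine 4 of histone H3 (H3K4me3) that overlapped a peak of trimethylated lysine 36 (H3K36me3) were followed in the extra-embryonic ectoderm (ExE) of hybrid mouse embryos, to see how far a bias of the promoter mark between the parental alleles predicted a bias of the gene-body mark. A pair of peaks entered when both lay on the same autosome, shared at least 1 bp, and each held at least 40 allelic reads summed over the libraries of each wild-type cross. Of 14936 overlapping pairs, 8930 met this rule. Another 4500 fell short of reads in H3K4me3 alone, 740 in H3K36me3 alone and 766 in both marks. The 8930 pairs held 8822 of the 40468 autosomal H3K4me3 peaks and 5366 of the 12871 autosomal H3K36me3 peaks.

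All embryos were collected at E6.5. Wild-type embryos came from reciprocal matings of C57BL6/Babr (B6) and CAST/Ei (CAST), written with the mother first as B6/CAST and CAST/B6. Embryos called matDKO/CAST had CAST fathers and mothers of mixed B6/129 background that were floxed on both copies of Dnmt3a and Dnmt3b, the de novo DNA methyltransferases, and carried a Zp3-cre transgene, which is active in growing oocytes. These embryos were therefore heterozygous for both genes, and the mother's 129 background went together with the genotype. Each library was made from 8 pooled ExE, with 1 chromatin preparation serving both marks. There were 2 libraries for each mark and cross, so 8 wild-type libraries in all. Allelic reads numbered 4250174 to 6821523 per wild-type H3K4me3 library and 1491356 to 2109182 per H3K36me3 library, against 2700834 to 3863258 and 602816 to 1029936 in matDKO/CAST. At the start sites of 8 ExE markers, total H3K4me3 was above every epiblast library in every ExE library for 4 genes, with mean values of 22.2 against 2.20 RPKM at Elf5 and 60.8 against 24.7 RPKM at Cdx2. At the others the means were 55.0 against 64.0 RPKM (Eomes), 57.6 against 56.7 (Ets2), 17.0 against 15.9 (Esrrb) and 30.6 against 20.9 (Bmp4). Total H3K4me3 was below every epiblast library for 4 of 8 epiblast markers, with 11.7 against 63.5 RPKM at Pou5f1. It was also above every epiblast library at 4 of 8 markers of visceral endoderm, whose mean levels ranged from 2.44 to 42.0 RPKM in ExE, at 1 of 7 markers of maternal decidua, which ranged from 0.296 to 24.9 RPKM and of which 2 were below every epiblast library, and at 1 of 4 of giant cells or ectoplacental cone, from 0.0999 to 36 RPKM. The part of cells other than ExE in the allelic ratios was not tested.

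H3K4me3 is laid down around the start sites of active and poised genes. H3K36me3 is added behind elongating RNA polymerase by SETD2 and marks the transcribed body of a gene, where it also recruits DNA methyltransferases. At imprinted genes only the copy from 1 parent is transcribed, in most cases because DNA methylation from the oocyte or sperm marks the other copy. In extra-embryonic tissues the imprinting of some genes does not depend on DNA methylation inherited from the oocyte.

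The peaks differed in size, with a median length of 6500 bp for H3K4me3 over the pairs and of 54500 bp for H3K36me3. The H3K4me3 peak covered a median of 8.93% of its H3K36me3 peak. It held a start site of a gene under the H3K36me3 peak in 7279 pairs, only the start site of another gene in 218, and no start site in 1433. An H3K36me3 peak can cover several genes, and its share is that of the whole peak, also where a single gene is named for it. Several H3K4me3 peaks lay over the same H3K36me3 peak in 2130 of 5366 cases, with up to 16 over a single one. The median number of reads in the less covered cross was 606 for H3K4me3 and 488 for H3K36me3. Pairs just inside the rule, with 40 to 49 reads in the least covered of their 4 sums, numbered 623 and had SDs of the log2 paternal over maternal ratio of 0.30 in H3K4me3 and 0.21 in H3K36me3. The 907 pairs just outside, with 30 to 39 reads, had SDs of 0.38 and 0.26. Pearson's r between the parental ratios of the marks was 0.186 just inside and -0.0858 just outside.

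Printed here are the 250 bases before a start site inside an H3K4me3 peak, taken from RefSeq on GRCm38.p6 and printed 5′ to 3′ on the strand of the gene with each CpG in capitals. Where a peak held several start sites of a gene, one with the most CpGs before it was chosen. For Gab1, whose biased peak held no annotated start site, the 250 bases of that peak with the most CpGs are shown, in an intron and on the plus strand, opposite to the gene. Sfmbt2, Kcnq1ot1, Gab1 and Meg3 are shown because both marks were biased toward the same parent there, Mest because H3K4me3 alone was, and the other 2 sets, each a host gene with the start site inside its body, because the marks went to opposite parents.
Sfmbt2 (chr2:10372186-10372435, plus strand): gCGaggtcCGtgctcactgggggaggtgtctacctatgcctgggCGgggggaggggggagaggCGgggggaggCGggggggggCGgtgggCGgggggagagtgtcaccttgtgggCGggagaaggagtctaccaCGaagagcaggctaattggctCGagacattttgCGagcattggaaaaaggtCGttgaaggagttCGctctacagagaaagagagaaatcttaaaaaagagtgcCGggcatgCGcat
Kcnq1ot1 (chr7:143296548-143296797, minus strand): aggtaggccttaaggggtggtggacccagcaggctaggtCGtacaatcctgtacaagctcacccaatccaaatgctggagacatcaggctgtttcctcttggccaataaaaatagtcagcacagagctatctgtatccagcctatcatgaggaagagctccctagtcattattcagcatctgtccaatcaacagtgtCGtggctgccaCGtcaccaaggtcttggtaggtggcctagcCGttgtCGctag
Gab1, inside the gene (chr8:80859464-80859713, plus strand): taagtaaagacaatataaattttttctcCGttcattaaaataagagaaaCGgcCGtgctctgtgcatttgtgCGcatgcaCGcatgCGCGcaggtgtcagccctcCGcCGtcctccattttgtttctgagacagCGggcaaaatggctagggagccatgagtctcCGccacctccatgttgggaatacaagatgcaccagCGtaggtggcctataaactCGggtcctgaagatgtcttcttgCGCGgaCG
Meg3 (chr12:109540746-109540995, plus strand): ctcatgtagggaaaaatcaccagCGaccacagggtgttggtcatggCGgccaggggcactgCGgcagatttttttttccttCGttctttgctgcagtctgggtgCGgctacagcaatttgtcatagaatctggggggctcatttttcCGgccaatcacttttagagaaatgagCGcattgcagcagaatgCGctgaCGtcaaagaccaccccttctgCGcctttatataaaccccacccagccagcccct
Mest (chr6:30737800-30738049, plus strand): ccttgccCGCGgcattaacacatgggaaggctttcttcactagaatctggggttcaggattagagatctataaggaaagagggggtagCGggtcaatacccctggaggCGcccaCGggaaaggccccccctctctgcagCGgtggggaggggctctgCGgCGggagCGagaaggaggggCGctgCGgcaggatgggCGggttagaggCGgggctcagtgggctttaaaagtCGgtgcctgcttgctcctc
Igf2r (chr17:12769707-12769956, minus strand): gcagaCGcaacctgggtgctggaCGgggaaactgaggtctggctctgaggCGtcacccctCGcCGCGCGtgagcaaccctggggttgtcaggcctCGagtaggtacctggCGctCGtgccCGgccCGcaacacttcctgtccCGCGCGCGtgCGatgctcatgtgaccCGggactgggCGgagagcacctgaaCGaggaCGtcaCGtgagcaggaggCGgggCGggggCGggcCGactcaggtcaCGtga
Airn (chr17:12741061-12741310, plus strand): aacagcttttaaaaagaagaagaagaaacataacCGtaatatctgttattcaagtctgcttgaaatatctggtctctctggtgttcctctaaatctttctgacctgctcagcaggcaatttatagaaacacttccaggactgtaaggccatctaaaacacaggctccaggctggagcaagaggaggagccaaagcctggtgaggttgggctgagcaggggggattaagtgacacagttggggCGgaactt
H13 (chr2:152669211-152669460, plus strand): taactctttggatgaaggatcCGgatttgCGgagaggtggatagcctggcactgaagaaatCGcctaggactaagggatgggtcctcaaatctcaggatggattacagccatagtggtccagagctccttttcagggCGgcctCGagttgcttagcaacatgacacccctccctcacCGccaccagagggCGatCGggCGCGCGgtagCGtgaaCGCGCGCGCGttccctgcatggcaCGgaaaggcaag
Mcts2 (chr2:152686898-152687147, plus strand): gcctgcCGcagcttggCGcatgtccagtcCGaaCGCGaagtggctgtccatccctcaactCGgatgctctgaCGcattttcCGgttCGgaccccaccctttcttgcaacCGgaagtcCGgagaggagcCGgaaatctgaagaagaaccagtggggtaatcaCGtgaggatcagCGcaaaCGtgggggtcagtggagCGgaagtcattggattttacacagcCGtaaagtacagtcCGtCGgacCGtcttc

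In the order printed these held 15, 5, 16, 10, 14, 27, 2, 18 and 20 CpGs. The start sites not printed from the same peaks had 8 CpGs at Sfmbt2, 0 at Meg3, and 7 and 14 at Mest. The median over 32851 RefSeq promoters was 6, and 9615 promoters in H3K4me3 peaks of the pairs without a parent effect had a median of 17. Promoters with a parent effect in H3K4me3 alone had a median of 10 (n = 39), and those with an effect in both marks a median of 6 (n = 39). The letters TGCCGC, which are the core of the motif bound by the zinc-finger protein ZFP57 at methylated imprinted regions, were searched for on either strand. They stood before the printed start sites of Meg3, Mest and Mcts2 and, of those not printed, only before the Mest site with 14 CpGs. They were found in 4 of the 39 promoters of each class with a parent effect (10.3%), in 15.4% of those without and in 8.68% of all RefSeq promoters.

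Most pairs had no parental bias in either mark, and across all of them the H3K4me3 ratio said little about the H3K36me3 ratio. The parental ratio is the log2 of paternal over maternal reads, with 0.5 reads added and averaged over the crosses, and the strain ratio is the same for B6 over CAST. Over 8930 pairs the parental ratios of the marks had a Pearson's r of 0.344 and a Spearman's rho of 0.036, and the same sign in 51.0% of pairs. The slope of H3K36me3 on H3K4me3 was 0.22. Pairs share libraries and often an H3K36me3 peak, so no p-value is given; with 1 pair per H3K36me3 peak r was 0.408 (n = 5366). The relation rested on few pairs. In the 65 pairs whose H3K4me3 peak had a parent effect r was 0.702, rho 0.606 and the slope 0.34, and in the other 8865 r was 0.042. Without the 47 pairs at a list of imprinted genes r over all pairs was 0.139, though a remaining pair can share an H3K36me3 peak with them.

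**Figure D1:**
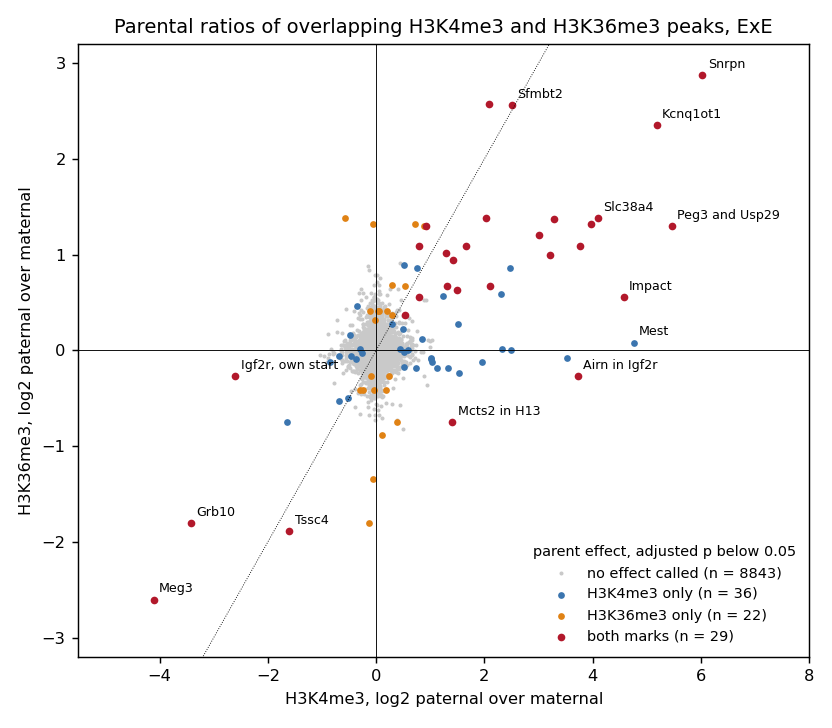
Log2 paternal over maternal ratio of H3K4me3 (horizontal) against that of the overlapping H3K36me3 peak (vertical) for 8930 pairs in wild-type ExE, coloured by the marks with a parent effect, with the line of equal ratios dotted. Nearly all pairs lie around 0 in both marks, the pairs with an effect in both marks extend to the upper right and lower left, mostly on the H3K4me3 side of the dotted line, and in H3K36me3 Mest lies near 0 and Airn in Igf2r and Mcts2 in H13 lie below 0, despite a paternal H3K4me3 ratio.

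In the plot of parental ratios, pairs with a moderate paternal H3K4me3 ratio, called or not, had little H3K36me3 ratio. Only 50 pairs in all had a called paternal H3K4me3 effect, and the part of counting error in moderate ratios was not tested. In 21 pairs with an H3K4me3 ratio above 2 the median H3K36me3 ratio was 1.09, and 19 had the same sign. In 76 pairs with an H3K4me3 ratio of 0.5 to 1 the median H3K36me3 ratio was 0.02, and 45 had the same sign. The bins between these and on the maternal side held under 20 pairs for ratios beyond 1: 16 pairs with a ratio of 1 to 2 had a median H3K36me3 ratio of 0.01 and the same sign in 8. On the maternal side the 3 pairs with a ratio of -2 to -1 had a median H3K36me3 ratio of -0.75 and the 3 pairs below -2 a median of -1.81, with the same sign in all of them.

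Replicates show how far each ratio repeated over the peaks, which depends on its spread between peaks as well as on counting error. Parental ratios from separate libraries correlated at 0.562 to 0.576 for H3K4me3 and at 0.237 to 0.251 for H3K36me3, and the marks of single libraries correlated with each other at 0.215 to 0.262. Marks taken from different embryo pools correlated at 0.236 and 0.241. For strain ratios the first 3 of these ranges were 0.774 to 0.782, 0.478 to 0.490 and 0.141 to 0.163. Strain ratios thus repeated better than parental ratios within a mark. Between the marks their Pearson's r was the lower, but their Spearman's rho of 0.0805 to 0.113 was above the 0.0224 to 0.0351 of the parental ratios. In 665 pairs with at least 1000 reads per cross in both marks, the parental r was 0.749 and the strain r 0.233. Leaving out the pairs with an H3K4me3 parent effect took that parental r to 0.097 (n = 661).

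**Figure D2:**
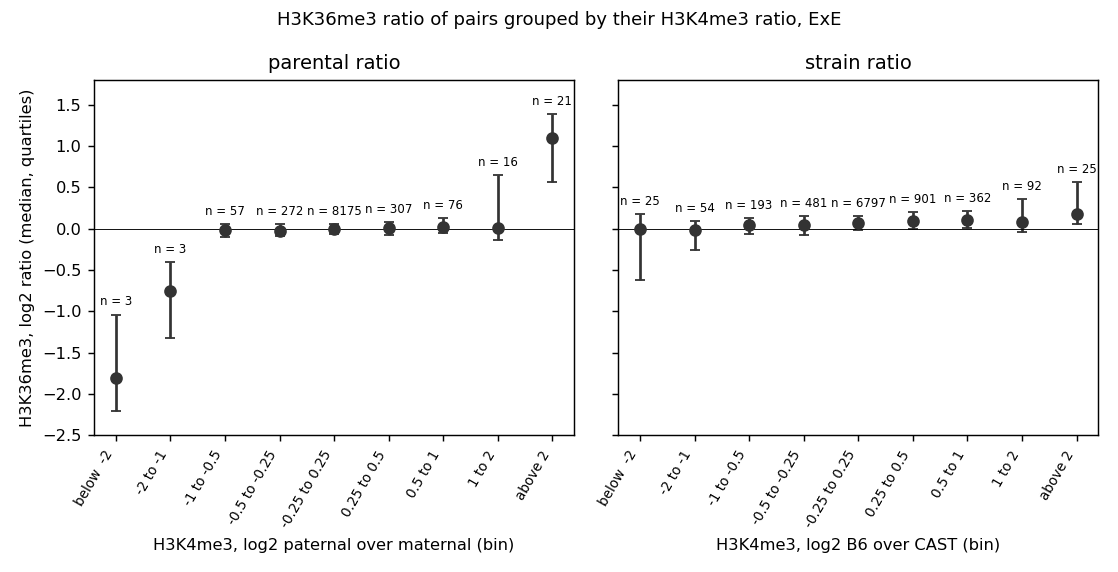
Median and quartiles of the H3K36me3 log2 ratio (vertical) of pairs grouped by their H3K4me3 log2 ratio (horizontal), for parental ratios (left) and strain ratios (right), with the number of pairs above each bin. The H3K36me3 median leaves 0 only in the outer bins of the parental ratio, at 1.09 above an H3K4me3 ratio of 2, while over the bins of the strain ratio it stays between -0.02 and 0.18.

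Parental bias was tested with edgeR's quasi-likelihood test and Benjamini-Hochberg adjustment over all informative peaks of a mark, at an adjusted p below 0.05. A peak was called imprinted when both crosses passed on their own with the same parent higher, and a parent effect was called in a joint fit of both crosses. Of the 8822 H3K4me3 peaks 33 were imprinted (0.374%), against a background of 0.319% of all informative H3K4me3 peaks. More paternal reads were found in 29 (0.329%, background 0.19%) and more maternal reads in 4 (0.0453%, background 0.129%). A parent effect was called in 64 (0.725%, background 0.711%), of which 49 were paternal (0.555%, background 0.431%) and 15 maternal (0.17%, background 0.28%). Of the 5366 H3K36me3 peaks 15 were imprinted (0.28%, background 0.251%), 12 of them paternal (0.224%, background 0.213%) and 3 maternal (0.0559%, background 0.0376%). A parent effect was called in 31 (0.578%, background 0.589%), of which 23 were paternal (0.429%, background 0.401%) and 8 maternal (0.149%, background 0.188%). The totals lay near the background, and among H3K4me3 peaks the paternal share was above it and the maternal share below it. With DESeq2 in place of edgeR, 9 H3K36me3 peaks were imprinted and 18 had a parent effect. The p-values measure the spread between embryo pools, and in pooled tissue fewer cells with a mark and less of the mark per cell cannot be told apart.

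In pairs chosen for an imprinted H3K4me3 peak, the H3K36me3 ratio went to the same parent in most. The 33 imprinted H3K4me3 peaks formed 34 pairs, with a median H3K4me3 ratio of 2.50 toward the called parent and a median H3K36me3 ratio of 0.88. The H3K36me3 ratio had the same sign in 27 of 34 pairs, and the H3K36me3 peak was itself imprinted to the same parent in 14, to the opposite parent in 1 and not called in 19. All 8 libraries lay on the same side of 50% in 22 pairs, and the marks lay wholly on opposite sides in 5. Over all 8930 pairs these happened in 0.717% and 0.358%. Among all peaks of a mark with allelic reads in each of the 4 libraries, 3.41% in H3K4me3 and 3.99% in H3K36me3 had more paternal reads in all 4, and 3.65% and 4.18% more maternal reads. In the 65 pairs with a parent effect in H3K4me3, 27 had an H3K36me3 parent effect to the same parent, 2 to the opposite parent and 36 had none called. Their median ratios were 1.41 and 0.50, 49 shared the sign, and 25 had an H3K36me3 ratio within 0.25 of 0. Choosing pairs by a mark favours a large ratio in that mark. In the 51 pairs chosen by an H3K36me3 parent effect the medians were 0.80 in H3K4me3 and 0.94 in H3K36me3, and in the 23 chosen by an imprinted H3K36me3 peak 2.09 and 1.32.

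The difference between the marks was tested directly, as the interaction of mark and parent with each library as a block, over 9942 overlapping pairs. It was called in 54 of the 8930 pairs (0.605%, background 0.704%), and in 38 of the 65 pairs with an H3K4me3 parent effect. In all 38 the H3K36me3 ratio was the smaller or the opposite one. The choice by the H3K4me3 effect, made in the same libraries, favours this direction. Of the 54 pairs the H3K4me3 ratio was farther from 0 in 43, with median absolute ratios of 1.22 and 0.38, and the signs differed in 27. The count fell to 35 without replicate 1 of B6/CAST and to 35 without replicate 2 of CAST/B6.

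Every imprinted H3K36me3 peak of the pairs overlapped an imprinted H3K4me3 peak. Of the 15 imprinted H3K36me3 peaks, 14 overlapped an H3K4me3 peak imprinted to the same parent, and the other, at H13, overlapped a peak imprinted to the opposite parent. These H3K4me3 peaks did not all hold an annotated start site, and those at Gab1 and before Smoc1 held none. The study reports that a repeat in the first intron of Gab1 is an alternative promoter in placenta. Of the 31 H3K36me3 peaks with a parent effect, 22 overlapped an H3K4me3 peak with an effect to the same parent, 1 to the opposite parent, 1 to each parent and 7 none. H3K4me3 peaks within a gene body were not alike: of 58 H3K36me3 peaks that overlapped an H3K4me3 peak with a parent effect, 30 overlapped several H3K4me3 peaks, and 25 of these included at least 1 without an effect.

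**Figure D3:**
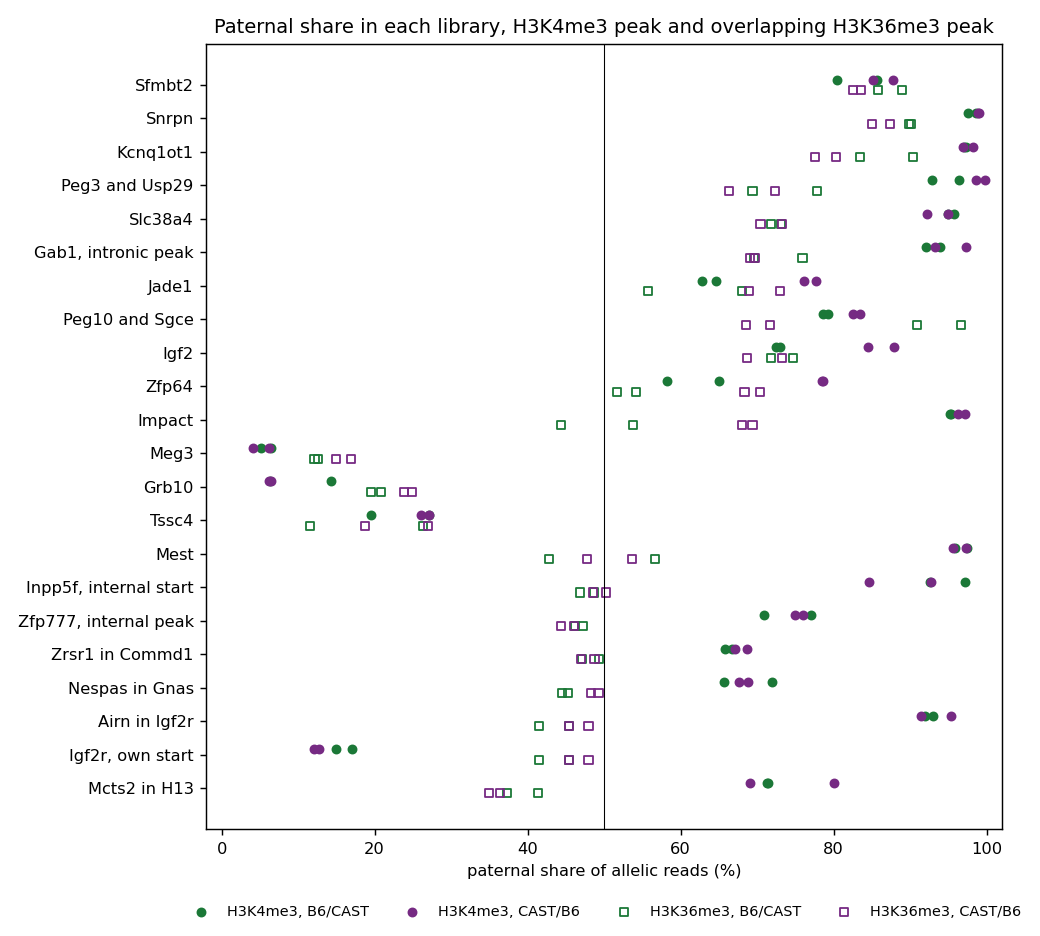
Paternal share of allelic reads (percent) in each wild-type library at 22 named pairs, with filled circles for H3K4me3, open squares for H3K36me3, green for B6/CAST and purple for CAST/B6, and a line at 50%. From Sfmbt2 to Tssc4 the squares lie on the side of the circles except 1 at Impact, from Mest to Zfp777 they lie between 42.9 and 56.6%, and in the lowest rows the squares of Commd1, Gnas, Igf2r and H13 lie below 50%, where the circles of the internal start sites lie above it and those of the Igf2r start below it.

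At Sfmbt2, a Polycomb-related gene needed for the trophoblast, the marks were biased to the same extent. Its H3K4me3 peak (chr2:10362000-10382500 on GRCm38) lay over its start site and had paternal shares of 85.7%, 80.4%, 87.8% and 85.1%, given here and in later lists of 4 for replicates 1 and 2 of B6/CAST and then of CAST/B6. The H3K36me3 peak had 88.9%, 85.9%, 83.6% and 82.5%. The 8 values overlapped, the fitted log2 parental differences were 2.49 ± 0.08 (SE) for H3K4me3 and 2.56 ± 0.06 for H3K36me3, and the marks differed by 0.06 ± 0.11 (adjusted p = 0.95).

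A small set of other genes also had no called parental difference between the marks, though a strain difference between them was called at Sfmbt2 (-0.43), at Peg10 and Sgce (-1.59) and at Igf2 (-0.73, adjusted p = 0.0224 at most). At Jade1, a scaffold of a histone acetyltransferase complex whose H3K36me3 peak also overlaps Sclt1, the paternal shares of H3K4me3 were 64.7%, 62.8%, 77.8% and 76.1%. Those of H3K36me3 were 68.1%, 55.7%, 73.0% and 68.9%, and the marks differed by -0.25 ± 0.08 (H3K36me3 minus H3K4me3, adjusted p = 0.221). At the shared promoter of Peg10, a retrotransposon-derived gene required for the placenta, and Sgce, H3K4me3 was 78.7 to 83.5% paternal. H3K36me3 there was 96.6% and 90.9% paternal in B6/CAST and 68.5% and 71.7% in CAST/B6, so it also had a strain effect toward CAST, with a log2 B6 over CAST difference of -1.46 ± 0.25 (adjusted p = 5.36e-07). The peaks at Igf2, a fetal growth factor, had paternal shares of 72.5 to 87.9% in H3K4me3 and of 68.6 to 74.7% in H3K36me3, the latter from 32 to 75 reads per library. Tssc4 was the maternal case, with paternal shares of 19.5 to 27.1% and 11.5 to 26.9%, but its H3K36me3 values rest on 16 to 26 reads per library, and that peak also overlaps Cd81 and Trpm5.

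At several start sites with nearly all H3K4me3 reads from the father, H3K36me3 was paternal too but less so. At Snrpn, which encodes a splicing protein, H3K4me3 was 98.6%, 97.5%, 99.0% and 98.8% paternal. H3K36me3 was 89.9%, 90.1%, 85.1% and 87.4% paternal over a peak shared with Snhg14, below each H3K4me3 value. The difference between the marks was -3.14 ± 0.36 on the log2 scale (adjusted p = 1.81e-15). At Kcnq1ot1, the noncoding RNA that silences a cluster of genes in cis, H3K4me3 was 96.9 to 98.3% paternal and H3K36me3 90.4%, 83.5%, 77.6% and 80.4%. The H3K36me3 peak also lies in the body of Kcnq1, and ChIP does not tell the strands apart. At the promoter shared by Peg3, a zinc-finger gene, and Usp29, H3K4me3 was 92.9%, 96.4%, 98.7% and 99.8% paternal, and H3K36me3 was 69.4%, 77.8%, 66.3% and 72.4%. This was a difference of -4.17 ± 0.19 (adjusted p = 3.47e-103).

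Slc38a4 and Gab1 are imprinted in extra-embryonic tissue. At Slc38a4, which encodes an amino acid transporter, H3K4me3 was 95.8%, 95%, 92.2% and 94.9% paternal, and H3K36me3 was 73.1%, 71.8%, 73.2% and 70.5%. A second H3K4me3 peak within the gene had no parent effect (-0.60 on the log2 scale, adjusted p = 0.256). Gab1 encodes an adaptor of receptor tyrosine kinases. Its peak at the annotated start site (chr8:80868000-80882000) had 50.4%, 51.7%, 44.8% and 49.1% paternal reads, so it was not biased. A peak inside the gene (chr8:80852500-80861000) had 92.1%, 93.9%, 93.2% and 97.3%. The H3K36me3 peak, which spans both, was 75.9%, 69.6%, 69.8% and 69.1% paternal, and thus lay between them. The marks differed by -2.65 ± 0.16 at the internal peak and by 1.40 ± 0.10 at the start site (adjusted p = 2.65e-57 and 1.53e-45).

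A paternal effect in both marks was also called in the joint fit at Impact, a regulator of the translation response to amino acid shortage, and at Zfp64. In B6/CAST alone H3K36me3 passed at neither (adjusted p = 0.899 and 0.223), so neither H3K36me3 peak was imprinted. At Impact H3K4me3 was 95.3 to 97.2% paternal, while H3K36me3 was 53.7% and 44.4% in B6/CAST and 68.0% and 69.4% in CAST/B6. A parent effect of 0.56 ± 0.11 (adjusted p = 0.000308) and a strain effect toward B6 were both called in that gene body. Zfp64, a zinc-finger gene, had H3K4me3 at 65.1%, 58.2%, 78.5% and 78.7% and H3K36me3 at 51.7%, 54.1%, 70.4% and 68.4%, so that CAST/B6 was the higher cross in both marks. Beyond the gene 2 intergenic H3K4me3 peaks (chr2:168968500-168972500 and chr2:169004500-169010000) and another peak over a start site (chr2:168976500-168983000) were also imprinted, with ratios of 2.11, 3.01 and 2.47. The ratios of the H3K36me3 peaks they overlapped, which for the first is that of Zfp64, were 0.67, 1.20 and 0.86, and the last did not pass the test (adjusted p = 0.0523).

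On the maternal side Meg3, a noncoding RNA made from the maternal copy, had the deepest data. Its paternal shares were 5.17%, 6.44%, 4.14% and 6.25% in H3K4me3. In H3K36me3 they were 12.6%, 12.1%, 16.9% and 15%, from 1391 to 2276 reads per library over a peak that also covers Rian, Mirg and Rtl1. Every library was thus strongly maternal, and the marks differed by 1.52 ± 0.14 (adjusted p = 2.37e-25). Grb10, an adaptor that dampens insulin signalling, had an H3K4me3 peak of 31 to 47 reads per library with 6.25 to 14.3% paternal reads and an H3K36me3 peak with 19.5 to 24.9%. This H3K36me3 peak also covers the 5′ end of Ddc, and an H3K4me3 peak of 60 to 143 reads per library over a Ddc start site in it had no parent effect (-0.15, adjusted p = 0.997).

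A further group of H3K4me3 peaks was imprinted where no parent effect was called in H3K36me3. Mest, which encodes a member of the hydrolase fold family, had 95.6 to 97.5% paternal reads in H3K4me3. The H3K36me3 peak over Mest, which also overlaps Copg2, was 56.6%, 42.9%, 47.8% and 53.7% paternal, from 28 to 54 reads per library, and its parental difference was 0.08 ± 0.22 (adjusted p = 0.996). The start site within Inpp5f, a phosphoinositide phosphatase gene, had 97.2%, 92.6%, 84.6% and 92.7%. The H3K36me3 peak, which covers Mcmbp and Sec23ip as well as Inpp5f and had 1061 to 1601 reads per library, had 46.8%, 48.6%, 50.3% and 48.5%, a difference of -0.08 ± 0.05 (adjusted p = 0.902), and the peak at the main start site was not biased either (0.02, adjusted p = 0.999). An exonic peak in Zfp777 without a start site had 70.9 to 77.1% paternal H3K4me3 reads and 44.4 to 47.2% in H3K36me3. An intergenic peak between Park7 and Errfi1 (chr4:150869500-150881500) had 74.8 to 94.6% and 46.6 to 54.9%. At all 4 the marks differed, by -1.76 at Zfp777 to -4.67 at Mest (adjusted p = 2.44e-07 at most).

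Of the 5 imprinted pairs whose marks lay wholly on opposite sides of 50%, Zfp777 was 1, and the other 4 were host genes with another start site inside. These are described here because of that pattern, and the H3K36me3 effect toward the mother was called in H13 and Igf2r alone. Inpp5f and Kcnq1, which also hold an imprinted internal start, did not show it. In H13, a signal peptide peptidase gene, the peak over the retrogene Mcts2 was 71.3%, 71.4%, 69.1% and 80.1% paternal in H3K4me3. H3K36me3 over the gene was 37.4%, 41.4%, 35.0% and 36.4% paternal, with a parent effect of -0.75 ± 0.10 (adjusted p = 9.84e-12). The 2 sets of values did not overlap and lay on either side of 50%. The peak at the start of H13 had no parent effect (0.37, adjusted p = 0.562).

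Igf2r, the receptor that clears IGF2, contains the start of the antisense RNA Airn, which silences it on the paternal copy. H3K4me3 at the Airn start was 93.0%, 92.0%, 91.4% and 95.4% paternal, and at the Igf2r start 14.9%, 17.0%, 12.7% and 12%. H3K36me3 over both was 45.5%, 41.5%, 48.0% and 45.5%, a small maternal effect of -0.27 ± 0.06 (adjusted p = 0.0045). The marks differed by -3.99 ± 0.15 at the Airn start and by 2.35 ± 0.18 at the Igf2r start. In Commd1, the peak over the retrogene Zrsr1 and the start of Commd1 was 65.8 to 68.7% paternal in H3K4me3, and the H3K36me3 peak, which also covers Cct4 and Fam161a, was 47.0 to 49.4%. At Gnas, which encodes a G protein subunit, the peak over Nespas and a Gnas start had 65.6 to 72.0% and the H3K36me3 peak 44.5 to 49.3%. In Commd1 and Gnas no H3K36me3 parent effect was called (adjusted p = 0.971 and 0.819), and the marks differed by -1.13 and -1.30. Host and internal gene overlap at all of these, so their H3K36me3 reads cannot be told apart.

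The list of imprinted genes held 69 genes, of which 36 had a pair. An H3K4me3 effect to the expressed parent was found for 27 genes and to the other parent for 6, and an H3K36me3 effect for 21 and 4, genes that share a peak being counted each. Among 23 paternally expressed genes the H3K4me3 counts were 22 and 1 and the H3K36me3 counts 15 and 3. Among 13 maternally expressed genes they were 5 and 5, then 6 and 1. The latter 5 in H3K4me3 were the host genes H13, Gnas, Kcnq1, Commd1 and Igf2r. They were counted through the internal peaks at Mcts2, Nespas, Kcnq1ot1, Zrsr1 and Airn, and Igf2r was counted for both parents. The median absolute parental ratio over the 47 pairs was 0.89 in H3K4me3 and 0.67 in H3K36me3, against 0.06 and 0.07 over all pairs. Of the 65 pairs with an H3K4me3 parent effect, 26 were at these genes, and 19 of the 26 had an H3K36me3 effect to the same parent. Of the 39 others 8 did. The list was applied to pairs, so another pair can share an H3K36me3 peak with a listed gene, as an intergenic peak beyond Zfp64 does. The list was compiled with knowledge of these tissues and is not independent of them.

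These 8 included Slc38a1, the neighbour of Slc38a4, with H3K4me3 at 64.0%, 62.3%, 57.9% and 51.2% paternal and H3K36me3 at 52.9%, 55.0%, 58.7% and 59.0%. They also included the predicted gene Gm32885 nearby, with 89.7 to 91.7% and 64.0 to 79.3%, and a peak before Smoc1 (chr12:81017000-81022000), with 79.6 to 98.8% and 55.3 to 75%. At Fkbp6, an immunophilin family gene needed in meiosis, H3K4me3 was 55.6 to 75.4% and H3K36me3 53.8 to 83.6% paternal. All values of these 4 lay above 50%. C330024D21Rik was unlike them: H3K4me3 was 88.1% and 90.5% paternal in B6/CAST and 48.2% and 46.2% in CAST/B6, and H3K36me3 82.2% and 69.1% against 53.6% and 49.2%, so the bias was that of 1 cross. The other 3 were both intergenic peaks named with Zfp64 and an intronic peak of Atrnl1.

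A parent effect in the joint fit was in part the bias of a single cross. Of the 31 pairs with an H3K4me3 effect in the joint fit alone, all 4 H3K4me3 libraries lay on the same side of 50% in 18. At an exonic peak of Actn1, the gene of an actin cross-linker, H3K4me3 was 49.6% and 44.2% paternal in B6/CAST and 96.1% and 93.1% in CAST/B6. H3K36me3 was 45.4 to 49.4%. At Cbx7, a Polycomb subunit gene, the shares were 51.8% and 56.3% against 25% and 24.8%, with H3K36me3 at 47.6 to 51.2%. In neither gene body was an effect called, and the marks differed by -2.08 ± 0.19 and 0.65 ± 0.08 (adjusted p = 2.82e-26 and 1.71e-12).

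Of the 7 gene bodies with an H3K36me3 parent effect and no H3K4me3 effect in their pairs, the body of Btaf1, Cpeb3 and Fgfbp3 had the most reads. H3K36me3 was 50.1%, 52.5%, 60.6% and 65.5% paternal there, and H3K4me3 at the Btaf1 start 49.2%, 50.3%, 53.9% and 60.3%. At Cdh3, the gene of P-cadherin, H3K36me3 was 27.2% and 34.6% paternal in B6/CAST and 53.2% and 60.6% in CAST/B6, with a strain effect toward B6 as well, while H3K4me3 at its start was 47.0 to 52.3%. An exonic H3K4me3 peak of Cdh3 with 22 to 52 reads per library had 7.69% and 21.6% against 80.6% and 81.8%, a B6 bias in both crosses. At Zfp473 the H3K36me3 values of 59.0 to 63.9% overlapped between the crosses, with H3K4me3 at 50.5 to 58.8%. These genes were chosen after their values were seen.

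Strain bias was far more common than parental bias, and most of it was called in H3K4me3 alone. A strain effect in the joint fit was called in 1383 H3K4me3 peaks (15.7%, background 19%), of which 683 had more B6 reads (7.74%, background 9.65%) and 700 more CAST reads (7.93%, background 9.34%). With each library as a block, 2235 were called. It was called in 753 without replicate 1 of B6/CAST, in 920 without replicate 2, and in 783 and 807 without replicates 1 and 2 of CAST/B6. In H3K36me3 385 peaks had a strain effect (7.17%, background 8.22%), 198 toward B6 (3.69%, background 4.37%) and 187 toward CAST (3.48%, background 3.85%). This fell to 197 without replicate 1 of B6/CAST and to 205 and 227 without replicates 1 and 2 of CAST/B6. Peaks called in each cross on its own, named strain-specific, numbered 289 in H3K4me3 (3.28%, background 3.96%), 167 toward B6 (1.89%, background 2.24%) and 122 toward CAST (1.38%, background 1.71%). In H3K36me3 there were 49 (0.913%, background 1.1%), 27 toward B6 (0.503%) and 22 toward CAST (0.41%), with a background of 0.551% for each strain. Without B6/CAST replicates 1 and 2 and CAST/B6 replicates 1 and 2 in turn, the first count was 128, 184, 143 and 118, and the second 29, 42, 14 and 24. With DESeq2 in place of edgeR, a strain effect was called in 545 H3K4me3 and 73 H3K36me3 peaks, and 79 and 8 were strain-specific.

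Over all pairs the strain ratios had an r of 0.192 and a rho of 0.123 (n = 8930), and the same sign in 56.5%. The H3K36me3 strain ratio had a median of 0.07 over peaks, so signs are also given relative to the median of each mark: 53.2% of all pairs lay on the same side. Among the 1398 pairs with an H3K4me3 strain effect r was 0.318, and H3K36me3 lay on the same side of its median in 60.6%. Their H3K36me3 was called toward the same strain in 136 pairs, toward the other in 41 and not called in 1221. The 290 strain-specific pairs had a median H3K4me3 ratio of 0.79 toward the called strain and of 0.04 in H3K36me3, both relative to the medians, and 61.0% lay on the same side. Of the 49 strain-specific H3K36me3 peaks 14 overlapped an H3K4me3 peak specific to the same strain, none to the other strain, and 35 overlapped no strain-specific peak. Whether the parental and the strain relation differed was not tested.

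**Figure D4:**
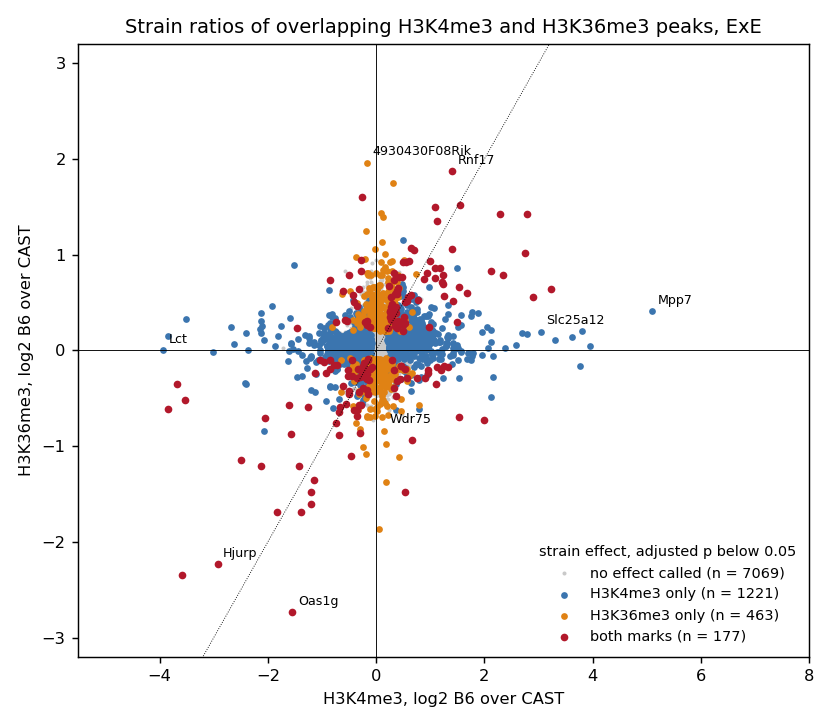
Log2 B6 over CAST ratio of H3K4me3 (horizontal) against that of the overlapping H3K36me3 peak (vertical) for 8930 pairs in wild-type ExE, coloured by the marks with a strain effect, with the line of equal ratios dotted. Pairs with an effect in H3K4me3 alone spread along the horizontal axis to Lct and Mpp7, pairs with an effect in H3K36me3 alone spread along the vertical axis, and Hjurp and Oas1g have large CAST ratios in both.

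Several of the largest H3K4me3 strain ratios stood over H3K36me3 peaks with a smaller strain ratio or none called. The peak at the start of Atp9a, the gene of a lipid flippase family member, had a B6 share of 91.3%, 94.0%, 95.7% and 95.4%, with a strain difference of 3.91 ± 0.20 on the log2 scale. H3K36me3 had 36%, 45.3%, 66.7% and 56.5%, from 53 to 75 reads, and no strain effect (-0.02 ± 0.19). At a start site of Slc25a12, a mitochondrial aspartate-glutamate carrier gene, the B6 share was 85.1 to 91.4% in H3K4me3 and 52.0 to 55.7% in H3K36me3. An exonic peak of Zbtb8a went the other way, with 2.33 to 11.6% B6 reads and 51.0 to 53.6% in H3K36me3, from 456 to 668 reads per library. Srl, which encodes sarcalumenin, had 4.44 to 8.16% in an exonic peak and 36.5 to 40.7% in H3K36me3, the latter with a CAST effect of -0.69 ± 0.16 (adjusted p = 0.000897). The marks differed in strain ratio at all 4, with adjusted p from 3.67e-63 at Slc25a12 to 3.52e-30 at Srl.

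At other genes both marks favoured the same strain. Hjurp, which encodes the chaperone of the centromeric histone CENP-A, had 10.3 to 13.1% B6 reads in H3K4me3 and 12.3 to 26.7% in H3K36me3, and the marks did not pass the test for a difference (0.67 ± 0.29, adjusted p = 0.106). Rsph1, a ciliary gene, had 19.9 to 24.9% and 13.2 to 32.7%, and Rnf17 57.9 to 79.1% and 74.3 to 85.1%. Oas1g, a member of a family of antiviral genes whose near-identical copies can share reads, had 20.4 to 29.2% and 8.47 to 19.3%, so its H3K36me3 was the more CAST-biased mark (-1.23 ± 0.35, adjusted p = 0.00645).

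In a last group the strain bias of H3K36me3 was absent from the H3K4me3 calls or went the other way there. At Wdr75, the gene of a ribosome biogenesis factor, H3K4me3 had 52.3%, 53.6%, 51.9% and 53.0% B6 reads, while H3K36me3 had 32.9%, 37.6%, 36.2% and 37.9%. The H3K36me3 values were all below the H3K4me3 values, with a difference of -1.0 ± 0.08 (adjusted p = 1.11e-31). At 4930430F08Rik the shares were 44.5 to 50% and 72.0 to 88.0%, a difference of 2.15 ± 0.29. At Atp6v1e1, which encodes a subunit of the proton pump of lysosomes, both marks had a strain effect but to opposite strains, with -0.33 ± 0.07 in H3K4me3 and 1.54 ± 0.23 in H3K36me3. The strain difference between the marks was called in 1182 pairs (13.2%, background 14.2%), in 705 of which the H3K4me3 peak and in 292 the H3K36me3 peak had a strain effect. The H3K4me3 ratio was the farther from 0 in 805 and the H3K36me3 ratio in 377. This count was 553 without replicate 1 of B6/CAST and 555 and 575 without replicates 1 and 2 of CAST/B6. It was 563 with 1 pair per H3K36me3 peak, of which there are fewer.

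In matDKO/CAST, where the oocyte had set no DNA methylation, the marks were compared at the 34 pairs imprinted in the wild type. Over all 34 the median ratio toward the wild-type parent went from 1.94 in B6/CAST to 0.49 for H3K4me3 and from 0.52 to 0.24 for H3K36me3. The difference from B6/CAST, tested as an interaction in a test added after the data were seen, was a reduction in 17 for H3K4me3 (background 0.892% in either direction) and in 6 for H3K36me3 (background 0.363%). In 13 pairs the H3K4me3 bias passed the test again. The background was 2.76% of all informative H3K4me3 peaks, 0.978% paternal and 1.78% maternal. Their median H3K4me3 ratio toward the wild-type parent went from 1.98 (B6/CAST) to 1.94 (matDKO/CAST), and that of H3K36me3 from 1.03 to 0.99. H3K36me3 was called to the same parent in 6 of the 13, with a background of 0.677%, 0.276% paternal and 0.401% maternal. In the other 21 pairs the H3K4me3 median went from 1.91 to 0.12 and the H3K36me3 median from 0.11 to 0.07, with no H3K36me3 peak called to the wild-type parent. The H3K4me3 test in matDKO/CAST made this split, so the H3K4me3 medians of the 13 and the 21 are a description fixed by it.

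The genes with a bias in both marks showed where the marks moved together. Snrpn had 46.6% and 54.0% paternal H3K4me3 reads and 49.2% and 53.3% H3K36me3 reads in the matDKO/CAST libraries, differences from B6/CAST of -5.59 ± 0.39 and -3.0 ± 0.37 on the log2 scale (adjusted p = 7.43e-08 and 1.02e-06). Kcnq1ot1 had 52.9% and 48.2%, then 44.5% and 46.5%, with differences of -4.99 ± 0.27 and -2.97 ± 0.26. Both values passed the test at Peg3 and Usp29 and at Peg10 and Sgce too. At Grb10 H3K36me3 went to 36.7% and 47.9% (adjusted p = 2.04e-05), while H3K4me3 had 8 and 3 reads and its difference of 1.86 ± 1.21 did not pass the test (adjusted p = 1).

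Sfmbt2 kept 85.3% and 89.2% paternal H3K4me3 reads and 82.9% and 86.9% H3K36me3 reads. Gab1 kept 87.9% and 86.5% at its internal peak and 72.5% and 69.7% over the gene, and neither mark passed the test of a difference (adjusted p = 0.753 and 1). At Slc38a4 H3K4me3 had 86.2% and 79.4%, a difference of -2.04 ± 0.34 (adjusted p = 0.00241), and H3K36me3 66.3% and 63.1%, which passed no test of a difference (-0.49 ± 0.25). Meg3 kept 7.47% and 4.27% in H3K4me3, and H3K36me3 had 19.3% and 15.5%, a shift of 0.61 ± 0.15 toward the father (adjusted p = 0.0489). At the internal starts of Inpp5f, Igf2r, Commd1 and Gnas the paternal excess of H3K4me3 was reduced, with adjusted p of 0.00809 at most, and H3K36me3 was 42.4 to 50.1% paternal. At Mcts2 in H13 H3K4me3 went to 38.4% and 38.3%. At the start of H13 itself the paternal H3K4me3 share was 8.74% and 5.71%, where the B6/CAST libraries had 60.1% and 65.0%, a shift toward the mother of -4.27 ± 0.38 (adjusted p = 1.37e-06), and H3K36me3 over the gene was 43.1% and 26.2% (adjusted p = 1). The matDKO/CAST libraries were the shallower ones, and a missed test there does not show that a bias was lost.

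**Figure D5:**
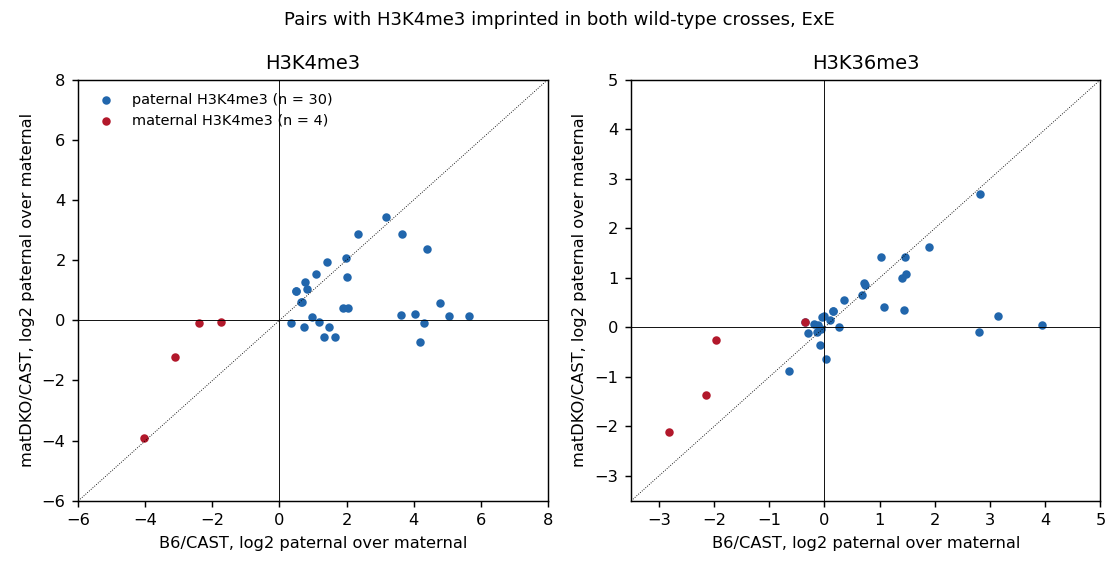
Log2 paternal over maternal ratio in B6/CAST (horizontal, from summed reads) against the fitted log2 ratio in matDKO/CAST (vertical) for H3K4me3 (left) and the overlapping H3K36me3 peak (right), for the 34 pairs with H3K4me3 imprinted in the wild type, blue for paternal and red for maternal H3K4me3, with the line of equal ratios dotted. In each panel some pairs lie along the dotted line and others lie near 0 on the vertical axis, among them the pairs with the largest B6/CAST ratios.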

How the data were processed

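H3K4me3 and H3K36me3 were profiled in ExE by native ultra-low-input ChIP-seq with MNase. Per the submitters' processing notes reads were trimmed with Trim Galore 0.4.4, for which the study's methods give another version. Per those methods they were aligned with Bowtie2 2.3.2 to GRCm38 masked at strain variants and assigned to alleles with SNPsplit. For matDKO/CAST, variants shared by 129 and CAST were left out and 129 reads were added to the maternal allele, which differs from the wild type and can move its ratios. The authors counted allelic reads in chromstaR peaks combined over crosses, and the deposited values used here are these raw counts. The tissue markers use deposited H3K4me3 values that the authors gave as RPKM in windows at start sites. A read without a variant is in no allelic count, so precision follows variant density.

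Peak coordinates are those of the tables. Genes came from GENCODE vM21 by overlap and promoter sequences from RefSeq (GRCm38.p6). Overlapping genes cannot be separated, since ChIP has no strand. Counts were tested with edgeR 4.0.16 in R 4.3.3 (glmQLFit, glmQLFTest, TMM factors per allele column) over autosomal peaks with at least 20 reads in 1 allele column. Of the peaks in the pairs 8777 of 8822 and 5271 of 5366 entered. Imprinted and strain-specific peaks passed in each cross, parent and strain effects came from a fit with cross, strain and parent, and the difference between marks from one with library as a block. The SE is the fitted difference divided by the root of the quasi-likelihood F. The fits were tested on simulated data. The 95% Wilson half-width of a single share in the plotted pairs was 0.628 to 16.5 percentage points for H3K4me3 and 1.36 to 18.5 for H3K36me3 in the wild type. It covers counting error only.

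The pairs, gene lists and tests were chosen with earlier results of these data known. Named were pairs at 69 imprinted genes, pairs with an imprinted H3K36me3 peak, the 10 largest H3K4me3 parental ratios with an effect, the 5 largest strain-specific ratios per strain and mark, the 10 parental and 5 strain differences between marks with the smallest p, and pairs with opposite parents in both marks. Pairs named beyond these were chosen after their values were seen, as were the test of matDKO/CAST against B6/CAST and the correlation without the imprinted list. Replicate numbers mark embryo pools shared by the marks. Replicate differences in allelic ratio correlated between marks at -0.00338 and 0.0127, and those of the alleles of a library at 0.215 and 0.272 for H3K4me3 and 0.0657 and 0.0510 for H3K36me3. DESeq2 1.42.0, other read, overlap and coverage minimums, a pseudocount of 5, centring, a stricter threshold and leaving out each library were the alternatives. Epiblast libraries and other marks were otherwise not used.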

Additional observations from a re-analysis of the deposited data

Results flagged for a closer look

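In 5 pairs every H3K4me3 library lay on the paternal and every H3K36me3 library on the maternal side of 50%, and the test of the difference between the marks (H3K36me3 minus H3K4me3, log2) passed. The difference was -1.13 at Zrsr1 in Commd1, -3.99 at Airn in Igf2r, -2.14 at Mcts2 in H13, -1.30 at Nespas in Gnas and -1.76 at an exonic peak of Zfp777. H3K36me3 had a parent effect of its own at Airn and Mcts2 but none called at the other 3.

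At peaks imprinted in both wild-type crosses, there were 8 cases in which both B6/CAST libraries lay on the paternal side and both matDKO/CAST libraries on the maternal side. The fitted log2 paternal over maternal H3K4me3 ratio in matDKO/CAST was -0.10 at Impact, -0.57 at Mcts2 in H13, -0.21 at Zfp64, -0.10 at chr2:168976500-168983000, -0.04 at Nespas in Gnas, -0.54 at chr4:150869500-150881500 and -0.71 at the internal start of Inpp5f. For H3K36me3 it was -0.10 at Kcnq1ot1. The difference from B6/CAST passed edgeR's interaction test at all of these except chr2:168976500-168983000 (-0.46 ± 0.21, adjusted p = 1). The matDKO/CAST libraries had 47.1% and 48.9% paternal reads over all autosomal H3K4me3 peaks, and 46.0% and 48.2% over H3K36me3 peaks. At Impact, Mcts2, Zfp64, Nespas, Inpp5f and Kcnq1ot1 the ratio in matDKO/CAST alone did not pass edgeR's test (adjusted p = 0.14 at least). No switch of parent was called at these genes.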

How the results depend on the processing

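No result changed direction under an alternative. Over the alternatives that kept all libraries, 57 values stayed on the same side or within their spread, 10 moved, 11 counts fell and 1 rose by over 1.5 times; over those that left out 1 library, 24 stayed, 9 moved and 19 fell. With DESeq2 the counts were 79 strain-specific and 545 strain-effect peaks in H3K4me3, and in H3K36me3 9 imprinted, 8 strain-specific, 18 parent-effect and 73 strain-effect peaks. At an adjusted p below 0.01 they were 158 and 801 in H3K4me3, 217 strain-effect peaks in H3K36me3 and 691 pairs with a strain difference between the marks. With library as a replicate block, which pairs the alleles of a library, 2235 H3K4me3 peaks had a strain effect, and no other count moved by over 1.5 times. With 1 library left out, the counts were 118 to 184 strain-specific and 753 to 920 strain-effect H3K4me3 peaks, 14 to 42 and 197 to 263 H3K36me3 peaks, 35 to 43 parental and 553 to 823 strain differences between marks, and 75 to 79.5% of pairs with the same parent. With 1 pair per H3K36me3 peak 563 strain differences were called, from fewer pairs.

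The correlation of parental ratios was 0.225 at 20 and 0.452 at 100 reads per cross, 0.408 with 1 pair per H3K36me3 peak, 0.374 where H3K4me3 covered under 25%, 0.373 with a start site, 0.139 without the imprinted list and 0.256 to 0.307 with 1 library left out. That of strain ratios was 0.161 at 20 reads, 0.258 with 1 pair per peak, 0.152 under 25%, 0.228 with a start site and 0.159 to 0.180 with 1 library left out. The cause was not tested. With 2 pools per cross and few H3K36me3 reads in many peaks, a bias that was not called is not shown to be absent.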
